A study of Mus musculus with 6 samples.

Results

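Oxidative phosphorylation is carried out by 5 protein complexes, and most of their subunits are encoded in the nucleus. The genes described here are those whose symbols begin with Nduf followed by a, b, c, s or v and a digit (complex I), are *Sdha* to *Sdhd* (complex II), begin with Uqcr (complex III), begin with Cox4 to Cox8 (complex IV) or begin with Atp5 (complex V). They number 84 of the 17418 genes in the table: 37 of complex I, 4 of complex II, 8 of complex III, 18 of complex IV and 17 of complex V. Every one had at least 1 UMI (unique molecular identifier, the tag that marks 1 captured RNA molecule). The choice used names and no measured value, though earlier results of these data were known. It takes in *Atp5s* and *Atp5sl*, which are not subunits of the synthase, and places *Ndufa4* and *Ndufa4l2* with complex I by name, although the *Ndufa4* protein is now counted with complex IV. *Ndufab1* is not matched, and 0 of 26 names looked for among the mitochondrially encoded subunits were rows of the table.

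The study asked how loss of *Fmr1*, the gene silenced in fragile X syndrome, changes gene expression in the cell types of the neonatal cortex. InDrop single-cell libraries, which count the 3' ends of transcripts in droplets, were made from the cortex of 6 mice of both sexes at postnatal day 5. The 3 WT mice were FVB.129P2-Pde6b+ Tyrc-ch/AntJ and the 3 Fmr1-KO mice FVB.129P2-Pde6b+ Tyrc-ch Fmr1tm1Cgr/J, in which the gene is lost in all cells of the body. WT 1, Fmr1-KO 1 and Fmr1-KO 2 were labelled with bead version 2. WT 2, WT 3 and Fmr1-KO 3 were labelled with bead version 3.8. Batch 1 and batch 2 here are these groups by bead version. Any other difference between the groups cannot be told apart from bead version.

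Complex I (NADH dehydrogenase) and complex II (succinate dehydrogenase, which is also an enzyme of the citric acid cycle) pass electrons to ubiquinone. Complex III (cytochrome bc1) hands them to cytochrome c, and complex IV (cytochrome c oxidase) reduces oxygen. The proton gradient built along the way drives complex V, the ATP synthase. Several subunits of complexes IV and V come in isoforms from separate genes, and the isoform used differs between tissues.

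Many nuclear genes of the chain carry promoter sites for NRF-1, a transcription factor named for this class of genes, whose palindromic site was searched for as GCGC, any base, then TGCGC. RefSeq promoters (GRCm38.p6, 250 bases before to 50 after the annotated start) were found for 66 of the 84 members, and the motif stood on either strand in 17 of them, or 25.8%. It was in 8.96% of the 12982 promoter-matched genes of the UMI table and in 5.19% of all 27025 genes with a promoter. A second motif, the ETS-type CCGGAAGT, was in 7.58% of the members against 6.98% of the genes of the table. The windows printed here show, for each complex, the member with the NRF-1 motif and the highest mean level, with 25 bases on each side of the match where the promoter extends that far. Each window is read 5' to 3' along the gene's strand with the motif in capitals.
Ndufa6 (complex I, minus strand, chr15:82354242-82354293): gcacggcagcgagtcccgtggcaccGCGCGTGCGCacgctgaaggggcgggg
Sdha (complex II, minus strand, chr13:74350216-74350275): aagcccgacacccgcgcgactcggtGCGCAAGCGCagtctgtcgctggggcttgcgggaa
Uqcrc1 (complex III, plus strand, chr9:108936628-108936687): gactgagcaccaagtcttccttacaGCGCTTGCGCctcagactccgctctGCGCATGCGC
Cox6a1 (complex IV, minus strand, chr5:115349086-115349145): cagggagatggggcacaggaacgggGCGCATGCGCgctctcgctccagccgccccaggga
Atp5g3 (complex V, minus strand, chr2:73911280-73911339): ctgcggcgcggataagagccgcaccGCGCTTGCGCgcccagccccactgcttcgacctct
A match of letters is a description of the window and says nothing about binding in these cells. The *Uqcrc1* window holds the motif in 2 places, and in *Sdha* it reads along the opposite strand.

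The table held 18393 cells in 17 libraries, of which 17280 were kept after 1113 marked as doublets were left out. Each mouse contributed between 8070039 and 20677233 UMIs, with a median per cell between 1688 and 4897. Cells carried the authors' 18 subtype names. Of 54 marker genes set for these types, 47 were highest in their own subtype, the exceptions including *Neurod6*, *Tbr1*, *Olig2*, *Sox10*, *Cspg4* and *Btg2*. Libraries of the same mouse shared 1854 cell barcodes, and 94.4% of these bore the same subtype in each library, so some cells may have been counted more than once. Counting each barcode once per mouse left out 14.1% of the cells, and the main counts are given both ways. *Fmr1* over all cells was at 68.4, 74.1 and 72.5 CPM (counts per 1000000 UMIs of the sum) in the WT mice and at 17.2, 19.9 and 16.1 CPM in the Fmr1-KO mice. In Astrocytes_1 its log2 fold change was -2.15 ± 0.11 (SE, n = 3 mice per genotype, edgeR, FDR = 7.71e-05).

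Pericytes, the mural cells of capillaries, carried the highest level of respiratory chain transcripts of any subtype, and Microglia the lowest. UMIs were summed per mouse and subtype and divided by all UMIs of that sum. Levels are given for the 15 subtypes with at least 10 cells in at least 3 mice. In Pericytes the 84 genes made up 26095 ± 2130 CPM (SD, n = 6 mice), that is 2.61% of the UMIs, with 24191, 25364 and 25514 CPM in WT 1 to 3 and 26374, 24939 and 30190 CPM in Fmr1-KO 1 to 3. Every pericyte value lay above the highest value of any other subtype in the same mouse among the 11 subtypes measured in all 6 mice. Microglia were at 12585 ± 857 CPM, with mice between 11418 and 13578 CPM, and ranked last or next to last in each mouse. The subtypes were made by clustering these cells, so differences between them are descriptions and carry no test. Differences in CPM are shares of a cell type's RNA, and less of another RNA cannot be told apart from more of these.

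Between these ends most neighbouring subtypes were close. Astrocytes_1 followed at 21020 ± 2335 CPM, below Pericytes in 6 of 6 mice and above Interneuron (19067 ± 3154 CPM) in 5 of 6. From Interneuron downward, through Ganglionic (17322 ± 1450), Excitatory (17010 ± 1850), Endothelial (16763 ± 1630), Oligodendrocytes (16479 ± 969), OPC_1 (16005 ± 1054), Astrocytes_2 (15578 ± 888) and Ependymal (14691 ± 2513), each neighbour differed from the next by less than the SD of their difference over mice. Ependymal cells and Microglia also did not differ beyond that SD. Neighbours were taken in the order of these same values, so small steps do not make the range narrow. Among the 11 subtypes Astrocytes_1 ranked 2 or 3 in each mouse and Astrocytes_2 between 7 and 10. The subtypes with fewer mice lay inside this range, at 18928 CPM for Fibroblasts (n = 3), 18115 CPM for CR (n = 5), 16531 CPM for OPC_2 (n = 5) and 14939 CPM for SVZ (n = 4). Cytosolic ribosomal protein transcripts were ordered differently: they were highest in Microglia (138856 CPM) and lowest in Ependymal cells (43995 CPM), with 103843 CPM in Pericytes.

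**Figure D1:**
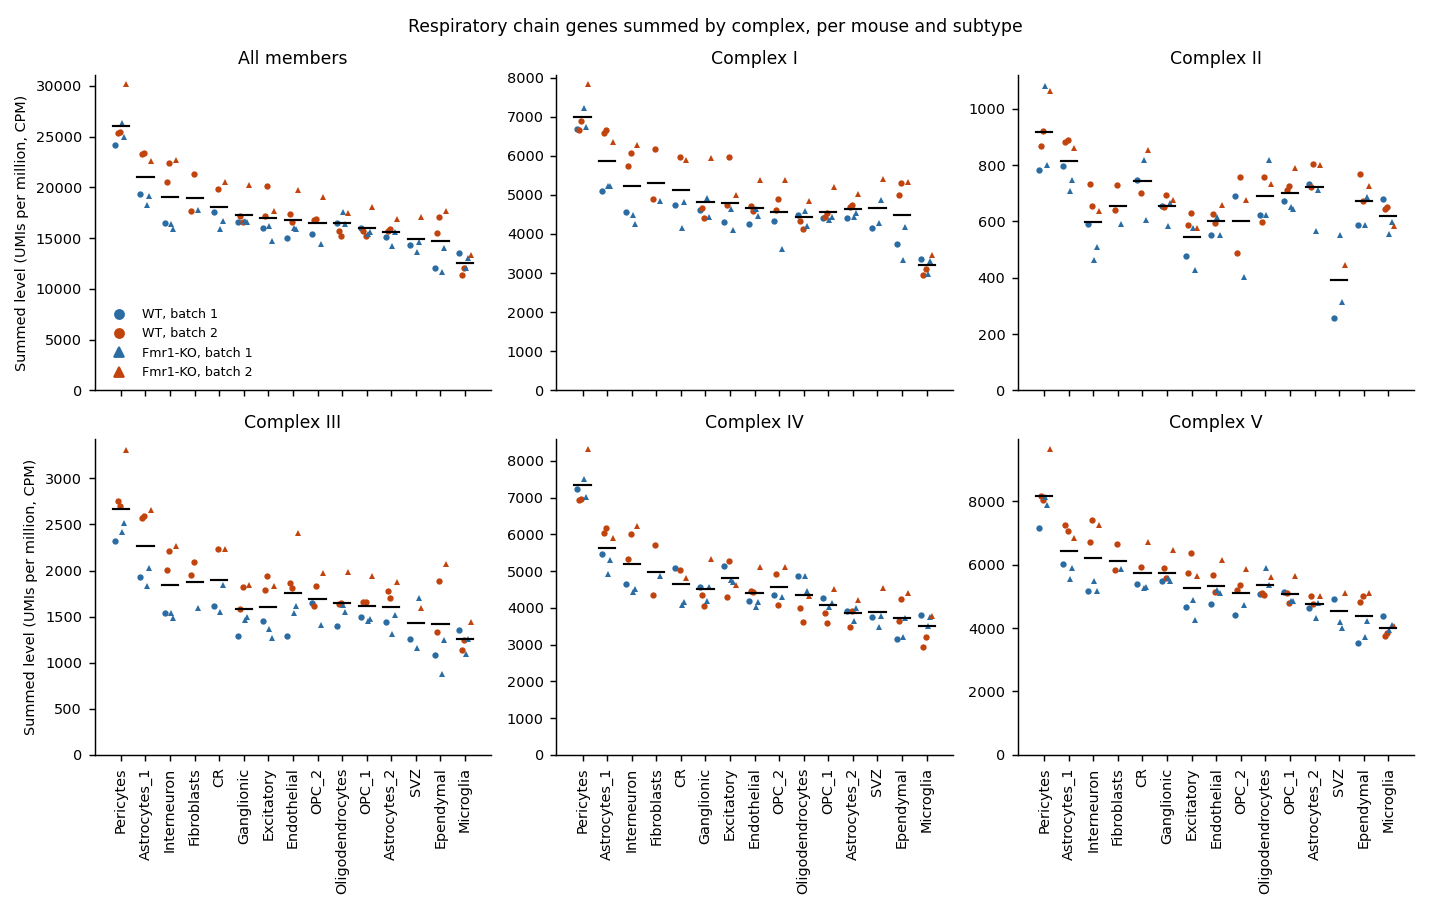
Summed level in CPM of all 84 members and of each complex, by subtype on the horizontal axis in the order of the total; each point is 1 mouse (circle WT, triangle Fmr1-KO, blue batch 1, red batch 2) and the black line is the mean over mice. Pericytes stand highest at a mean of 26095 CPM and Microglia lowest at 12585 CPM, and the red points lie above the blue ones in many subtypes.

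Complexes I, III, IV and V spanned about the same range across the 11 subtypes, and complex II spanned less. Complex I ranged from 7001 CPM in Pericytes to 3195 CPM in Microglia, a ratio of 2.19, and Microglia were lowest for it in 6 of 6 mice. Complex III ranged over 2.12-fold, complex IV over 2.10-fold and complex V over 2.04-fold, with Pericytes highest in 6 of 6 mice for each. For complex II the ratio was 1.68, from 919 ± 128 CPM in Pericytes to 545 ± 77.3 CPM in Excitatory neurons, and Pericytes were highest in 3 of 6 mice and second in the other 3. Over the 15 subtypes complex I contributed 25.4% to 31.3% of the chain's UMIs, complex II 2.62% to 4.92%, complex III 9.14% to 10.8%, complex IV 24.8% to 28.2% and complex V 29.9% to 33.2%.

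The pericyte level came from many members with moderate differences. A member was counted as higher in a subtype where its log2(CPM + 1) exceeded the mean of the other subtypes of the same mouse in every mouse, by at least 1.5-fold on average. By this rule 43 of the 84 members were higher in Pericytes, against 13.2% of all 17418 genes, and they came from every complex: 17 of complex I, 1 of complex II, 6 of complex III, 9 of complex IV and 10 of complex V. The count was also 43 with each barcode counted once. At a difference of 2-fold it was 8 of 84, near the 10.3% of all genes. All 43 were among the 75 members detected in 15% or more of the pericytes, and of all genes so detected 39.8% were higher. The median member stood 0.61 above the other subtypes on the log2 scale, while the median gene stood 0.10 below. 1 member, *Ndufa4*, was lower in Pericytes (14.1% of all genes were).

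Catalytic and core subunits show the size of these differences. *Uqcrc1*, a core protein of complex III, was at 316 CPM in Pericytes, 191 CPM in Astrocytes_1 and 117 CPM in Microglia. *Cox4i1*, the regulatory subunit of cytochrome c oxidase, was at 1298 ± 274 CPM in Pericytes against 932 CPM in Astrocytes_1 and 612 CPM in Microglia. *Atp5b*, the catalytic beta subunit of the synthase, was at 1140, 780 and 443 CPM in the same order. *Sdha*, the flavoprotein of complex II, spanned less, at 210, 191 and 139 CPM. *Ndufv1*, a core subunit of complex I, was at 92.8 CPM in Pericytes and 32.9 CPM in Microglia.

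**Figure D2:**
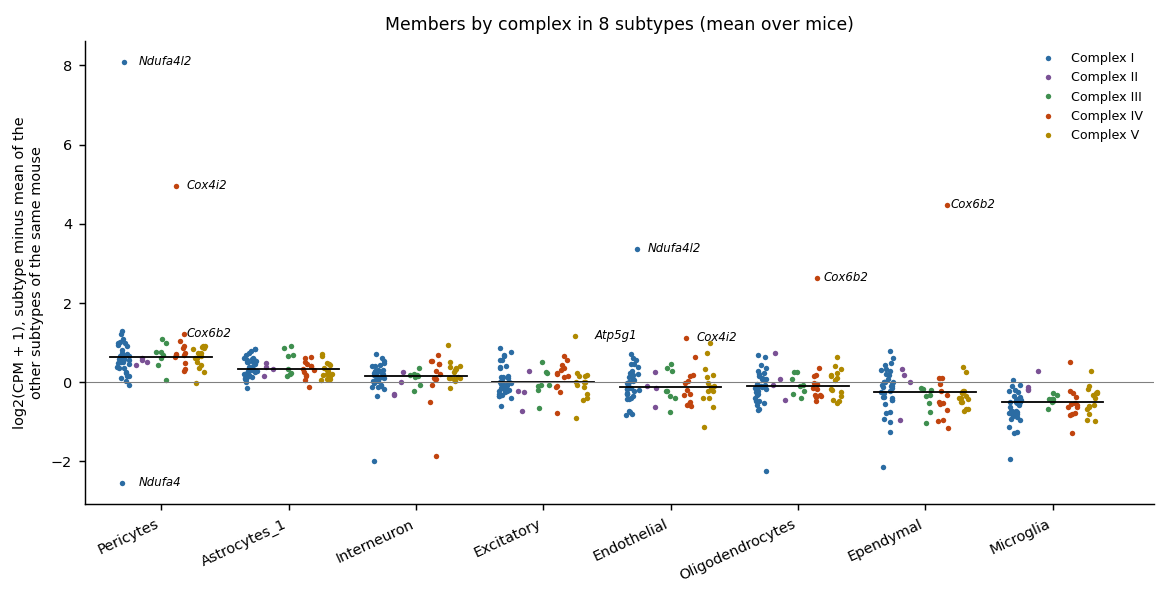
Difference in log2(CPM + 1) between a subtype and the mean of the other subtypes of the same mouse, averaged over mice, for the members with a mean of at least 50 CPM over the subtypes and for *Cox4i2* and *Cox6b2*; each point is 1 member, coloured by complex, and the black line is their median. Most members lie above 0 in Pericytes and below 0 in Microglia, and *Ndufa4l2* at 8.09 and *Ndufa4* at -2.55 stand apart in Pericytes.

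The exchange of *Ndufa4* for its paralog *Ndufa4l2* was the largest difference of any member. *Ndufa4l2* (chr10:127514967-127517154, plus strand, mm10) encodes a protein related to *Ndufa4* that is known as a target of the hypoxia-inducible factor. In Pericytes it was at 966, 620 and 627 CPM in WT 1 to 3 and at 784, 968 and 740 CPM in Fmr1-KO 1 to 3, while *Ndufa4* was at 56.5, 77.9 and 55.1 CPM and at 66.9, 85.9 and 48.4 CPM. The lowest *Ndufa4l2* value was above the highest *Ndufa4* value. In the other subtypes the order was the opposite, with *Ndufa4* between 193 CPM in Microglia and 555 CPM in Interneuron. Relative to the other subtypes *Ndufa4l2* stood at a log2 difference of 8.09 ± 0.40 in Pericytes and *Ndufa4* at -2.55 ± 0.47 (SD, n = 6 mice).

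Counted within the pair, *Ndufa4l2* gave 1993 and *Ndufa4* 157 of the pericyte UMIs, so that *Ndufa4l2* made up 92.7% (95% exact binomial interval 91.5% to 93.8%). InDrop counts 3' ends, so a UMI stands for a captured molecule whatever the length of the transcript, and a share of a pair assumes that both are captured alike. All intervals of this kind cover counting error only. The share was 7.21% in Endothelial cells (200 of the pair's UMIs) and 7.36% in Fibroblasts (17 UMIs), 3.02% in Ependymal cells, and at most 1.43% elsewhere. No *Ndufa4l2* UMI was seen in Oligodendrocytes beside 689 *Ndufa4* UMIs.

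Pericyte markers were also seen outside Pericytes. Endothelial *Ndufa4l2* was at 5.35% of its pericyte level, and the pericyte markers *Rgs5*, *Pdgfrb*, *Kcnj8* and *Abcc9* were at 9.45%, 7.31%, 5.91% and 5.77% of theirs. In Fibroblasts *Ndufa4l2* was at 5.47% of its pericyte level, beside 13.2% for *Pdgfrb*, which fibroblasts also express, and 0.0482%, 0.0835% and 0.654% for *Rgs5*, *Kcnj8* and *Abcc9*. Whether pericyte RNA contributed to either value was not tested.

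A second pericyte isoform was *Cox4i2*, the alternative form of the *Cox4i1* subunit that is associated with low oxygen and with lung (chr2:152754173-152765037, plus strand). Its pericyte level was 216, 74.7 and 47.4 CPM in WT 1 to 3 and 177, 223 and 71.3 CPM in Fmr1-KO 1 to 3. The 3 mice of batch 1 were all above the 3 of batch 2, with no overlap. It made up 6.01% of the *Cox4i* UMIs in Pericytes (256 against 4003 for *Cox4i1*), and over all mice at most 1.76% in any other subtype, in Excitatory neurons at 17.0 CPM. These shares also differed by batch. In the mice of batch 1 the share was 12.8% to 17.7% in Pericytes, 3.64% to 7.01% in Excitatory neurons and 2.73% to 6.25% in Endothelial cells, and in those of batch 2 it was 3.33% to 4.88%, 0% to 0.312% and 0.0470% to 0.818%. The pericyte share was thus the highest of these 3 subtypes in each mouse, but the batch 2 pericyte shares lay within the range of the batch 1 values of the others. The log2 difference from the other subtypes was 4.95 ± 0.64 with 1 CPM added and 3.05 with 10 CPM added, and for *Ndufa4l2* 5.81 with 10 CPM added.

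*Cox6b2*, described as the testis form of the *Cox6b* subunit, was found mainly in Ependymal cells, the ciliated lining of the ventricles (chr7:4751792-4753094, minus strand). It was at 107, 108 and 48.9 CPM in WT 1 to 3 and at 101, 211 and 110 CPM in Fmr1-KO 1 to 3, a mean of 114 ± 52.7 CPM, from 255 cells. The *Cox6b1* level there was 195 ± 64.8 CPM, so *Cox6b2* gave 38.2% of the pair (interval 33.5% to 43.0%). Fibroblasts had 14.2% of the pair at 35.4 ± 31.0 CPM, on 22 UMIs, with none in 1 of their 3 mice. Oligodendrocytes had 10.8% at 32.8 ± 11.9 CPM, above the mean of the other subtypes in 6 of 6 mice. The ependymal markers *Foxj1*, *Ccdc153* and *Tmem212* were in Oligodendrocytes at 0.264%, 0.852% and 0% of their ependymal level, whereas *Cox6b2* was at 28.7%.

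The genes *Atp5g1*, *Atp5g2* and *Atp5g3* encode the same mature c subunit of the synthase rotor with different import sequences, and Excitatory neurons used them in another ratio than the other subtypes. In Excitatory neurons *Atp5g1* was at 354 ± 58.7 CPM and *Atp5g2* at 199 ± 36.9 CPM. In each of the other 14 subtypes the mean of *Atp5g2* was the higher of the pair, as in OPC_1 with 158 ± 31.2 CPM of *Atp5g1* and 437 ± 83.5 CPM of *Atp5g2*. In Interneuron they were at 309 ± 65.6 and 327 ± 75.4 CPM, within their spread. *Atp5g1* in Excitatory neurons exceeded the mean of the other subtypes in 6 of 6 mice by a log2 difference of 1.16 ± 0.12, and *Atp5g2* was below it in 6 of 6 at -0.91 ± 0.14. *Atp5g3* was at 333 CPM in Microglia, where *Atp5g2* was at 438 CPM, and was highest in Pericytes at 938 ± 159 CPM.

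**Figure D3:**
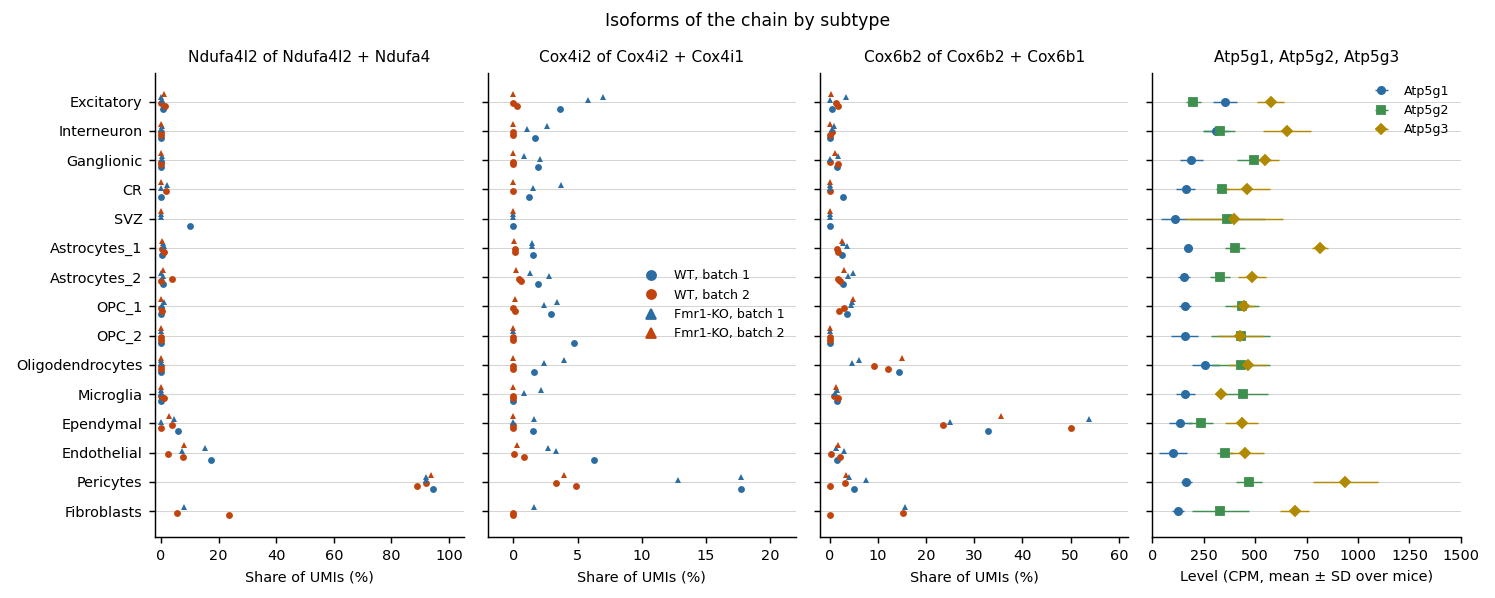
Left to right, the share of *Ndufa4l2*, *Cox4i2* and *Cox6b2* among the UMIs of their pair in percent, each point 1 mouse (circle WT, triangle Fmr1-KO, blue batch 1, red batch 2), and the level of *Atp5g1*, *Atp5g2* and *Atp5g3* in CPM (mean and SD over mice), by subtype. *Ndufa4l2* is at 92.7% in Pericytes over all mice, *Cox6b2* at 38.2% in Ependymal cells, and *Atp5g1* lies above *Atp5g2* in Excitatory neurons; the single high SVZ point for *Ndufa4l2* rests on 1 UMI.

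The remaining isoforms were rare in this tissue. *Cox6a2*, the heart and muscle form, had 28 UMIs in Excitatory neurons and 14 in Microglia, where it made up 1.43% of the *Cox6a* UMIs. *Cox7a1*, also a muscle form, made up 1.73% of its pair with *Cox7a2* in Astrocytes_1 (150 UMIs) and at most 3.20% elsewhere, in CR on 7 UMIs. *Cox7b2*, *Cox8b* and *Cox8c* stayed at or under 1.75 CPM in every subtype. In all, 11 of the 84 members had a mean below 50 CPM over the subtypes. Among the other 73, 38 were highest in Pericytes and 32 lowest in Microglia. Leaving out *Ndufa4l2*, which had no UMI in OPC_2, the ratio of the highest to the lowest subtype had a median of 2.54 and ran from 1.54 to 8.53, the last being *Ndufa4*.

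In Astrocytes_1 and the neurons some members were also higher, not all of them in these subtypes alone. In Astrocytes_1, 18 members were higher than in the other subtypes and 0 lower, against 19.3% and 9.86% of all genes, so the share of 21.4% was near the background. *Uqcr10* (252 CPM, log2 difference 0.91) and *Uqcr11* (0.87), both small subunits of complex III, stood among the first. In Excitatory neurons 8 members were higher and 4 lower, against 24.1% and 9.52% of all genes. The higher ones included *Ndufb2* (log2 difference 0.88) and *Ndufa5* (0.77), both accessory subunits of complex I. *Ndufb2* was also among the higher members of Pericytes (1.30) and CR (1.01), and *Ndufa5* among those of Ganglionic cells (0.60). Endothelial cells had 6 higher (15.3% of all genes) and 7 lower (18.2%), with *Atp5h*, a subunit of the peripheral stalk, highest there at 573 CPM. In Ependymal cells 4 were higher (15.5%) and 11 lower (11.1%), and *Ndufa5* was at 24.3 CPM there against 139 CPM in Excitatory neurons.

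The other subtypes had few members on either side. Interneuron had 5 higher and 2 lower (17.0% and 9.8% of all genes), among them *Atp5g1*. Oligodendrocytes had 5 and 1 (10.9% and 14.1%), OPC_1 1 and 1 (25.8% and 4.86%), and Ganglionic 2 and 3 (16.0% and 11.2%). Ganglionic cells and Astrocytes_2, with 1 and 0 (16.4% and 3.78%), shared *Ndufc2*, an accessory subunit of complex I, among the higher members. Among the subtypes with few cells, Fibroblasts had 8 and 3 (11.6% and 24.1%), CR 4 and 2 (14.1% and 17.0%), OPC_2 2 and 5 (6.68% and 16.8%) and SVZ 0 and 11 (7.73% and 23.6%).

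In Microglia 29 members were lower and 1, *Cox6a2*, higher, against 22.1% and 14.0% of all genes. Complex I gave 17 of the 29, complex III 1, complex IV 5 and complex V 6. *Ndufb6*, an accessory subunit of complex I, chosen after its values were seen, was at 36.4 CPM in Microglia and at 156 CPM in Pericytes. The count was 29 with each barcode counted once, and 19 of 62 when members detected in fewer than 15% of the microglia were left out (10.6% of all genes so detected). At a difference of 2-fold it was 4 of 84, against 16.4% of all genes.

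The level of the chain also followed the batch. In 5 of the 10 subtypes with at least 100 cells in each genotype (Astrocytes_1, Astrocytes_2, Endothelial, Excitatory and Interneuron) the summed level of the 84 genes did not overlap between batches and was higher in batch 2. In Interneuron the 3 mice of batch 1 were at 16499, 16402 and 15922 CPM and those of batch 2 at 20522, 22365 and 22693 CPM. Of 70 members tested there, 40 were higher in batch 2 with no overlap and 2 lower, against 17.9% and 19.4% of all genes tested. In Astrocytes_1 51 of 74 were higher and 5 lower (23.5% and 29.4% of all genes). Excitatory neurons had 31 of 72 higher and 7 lower, beside 34.7% and 22.9% of all genes. Their median UMIs per cell were 976, 1041.5 and 991 in batch 1 and 2005, 8588 and 5889.5 in batch 2. In Interneuron these medians overlapped, at 2682, 3023 and 2222.5 in batch 1 and 1697, 1986.5 and 2274 in batch 2. The part of this depth was not tested. Each batch holds both genotypes.

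The batch difference was not a common shift, since some members moved the other way. *Cox7c*, a small subunit of complex IV, was higher in batch 2 without overlap in 10 of 10 subtypes, as was *Atp5b*, with a median log2 difference of 0.88 and 0.52. *Cox8a* and *Cox6b1*, also of complex IV, were lower in batch 2 without overlap in 9 of 10 subtypes (median log2 difference -0.48 and -0.47), and so was *Atp5g2* (-0.41). *Atp5g1* was lower in 8 of 10 (-0.44). In Pericytes *Cox7c* was at 257, 378 and 424 CPM in batch 1 and at 600, 644 and 785 CPM in batch 2, and *Cox8a* at 1721, 1663 and 1575 CPM in batch 1 and at 1029, 1203 and 1387 CPM in batch 2. These members were picked out after their values were seen. Which property of the batches moves with these genes was not tested.

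**Figure D4:**
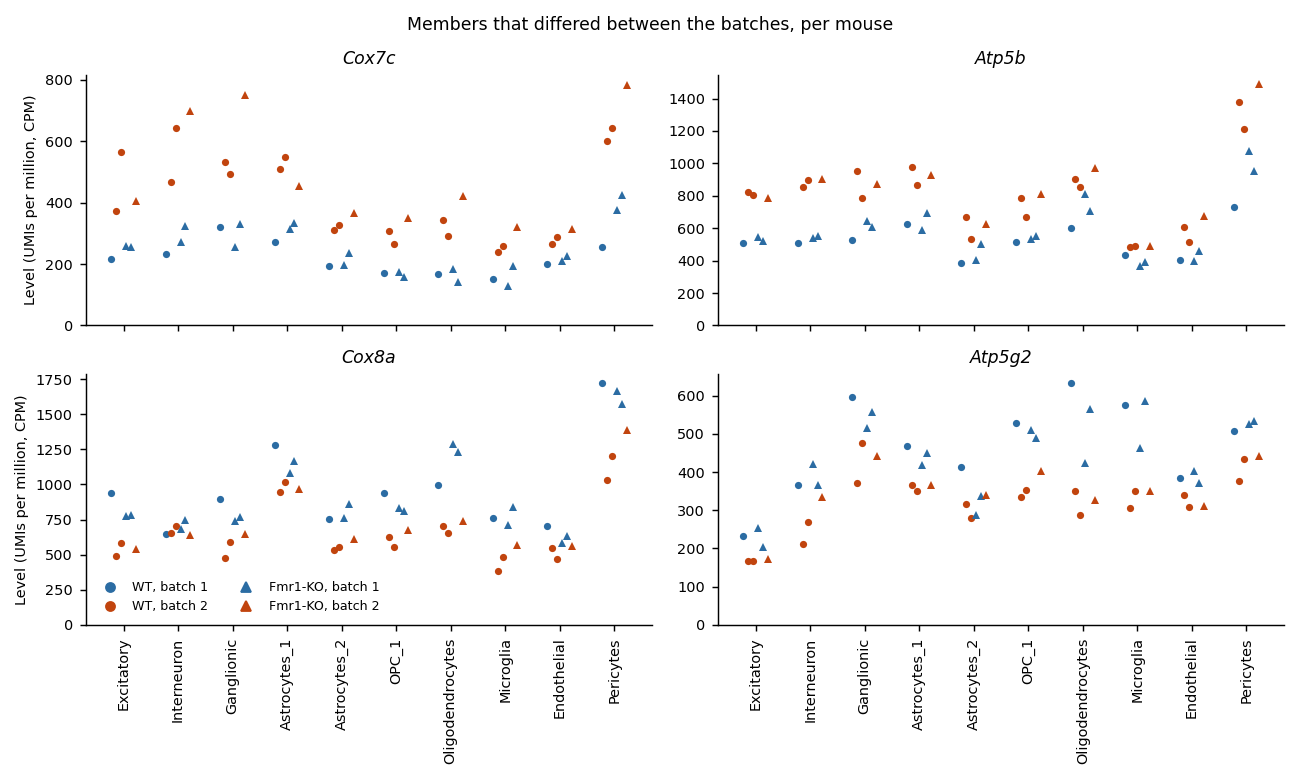
Level in CPM of *Cox7c*, *Atp5b*, *Cox8a* and *Atp5g2* in the 10 tested subtypes; each point is 1 mouse (circle WT, triangle Fmr1-KO, blue batch 1, red batch 2). Red points lie above blue ones for *Cox7c* and *Atp5b* in 10 of 10 subtypes and below them for *Cox8a* and *Atp5g2* in 9 of 10.

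Loss of *Fmr1* gave no called change in any respiratory chain gene in any of the 10 subtypes. The comparison took mice as replicates, with edgeR's quasi-likelihood test on the summed UMI counts, batch as a covariate and Benjamini-Hochberg adjustment over all genes detected in 15% or more of a subtype's cells. A gene was called at a false discovery rate (FDR) under 0.01 and past the study's own minimum fold change. Between 62 (Microglia) and 75 (Pericytes) of the 84 members could be tested, and 0 were called. Of all genes tested, between 0 and 2 were called in a subtype, at most 0.0499% in Ganglionic, 0.0423% in Oligodendrocytes, 0.0245% in OPC_1 and 0.0208% in Astrocytes_1, and 0.0% in the other 6. DESeq2 likewise called 0 members in each subtype, as did edgeR with each barcode counted once. Without the filter on low genes edgeR called 1 member, in Endothelial cells. The lowest member FDR was 0.193, in Endothelial cells. The median SE of the members ran from 0.087 in Astrocytes_1 to 0.27 in Oligodendrocytes on the log2 scale. Small changes could therefore go uncalled. The summed level of the 84 genes overlapped between the genotypes in all 10 subtypes. Across complexes I to V in these 10 subtypes it did not overlap in 2 cases, given without a test. For comparison, 4.36% (Excitatory) to 9.04% (Oligodendrocytes) of all genes tested did not overlap in a subtype. In Microglia complex II was at 678, 646 and 651 CPM in WT and at 556, 599 and 584 CPM in Fmr1-KO, beside OPC markers at 9.91 to 14.6 CPM in WT and 16.3 to 62.1 CPM in Fmr1-KO, whose part was not tested. In Oligodendrocytes complex V was at 5076, 5105 and 5042 CPM in WT and at 5903, 5370 and 5620 CPM in Fmr1-KO, beside ribosomal protein sums that did not overlap either, at 68559 to 71368 CPM in WT and 72830 to 79989 CPM in Fmr1-KO.

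The direction of the members was nevertheless uneven. Of all genes tested, between 49.3% (Microglia) and 51.8% (Astrocytes_1) had a higher estimate in Fmr1-KO. Counts of members in 1 direction carry no test, since members can move together within a mouse. In Endothelial cells 60 of the 72 members tested had a higher estimate in Fmr1-KO, with a median log2 fold change of 0.25, while the median of all genes tested was near 0. Without adjustment 23 members had p under 0.05 and a higher level in Fmr1-KO and 0 a lower one, against 6.94% and 4.07% of all genes. *Atp5k*, a small subunit of the synthase, was at 201, 344 and 324 CPM in WT 1 to 3 and at 285, 239 and 671 CPM in Fmr1-KO 1 to 3. Its log2 fold change was 0.84 ± 0.17 (SE, edgeR, FDR = 0.193), and the genotypes overlapped, with Fmr1-KO 3 far above the others. *Uqcr10* (complex III) was at 0.85 ± 0.20 and *Ndufb9* (complex I) at 0.70 ± 0.17, both at an edgeR FDR of 0.193. By complex the median log2 fold change was 0.29 for complex I, 0.20 for II, 0.48 for III, 0.19 for IV and 0.24 for V.

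The endothelial count was lowest with Fmr1-KO 3 left out. Fmr1-KO 3 is the only Fmr1-KO mouse of batch 2, and WT 1 the only WT mouse of batch 1. With batch as a covariate, leaving out either mouse leaves the genotype difference to 1 batch, in every subtype. The part of the mouse itself then cannot be told apart from the loss of that batch. Without Fmr1-KO 3 the median was 0.14, and 2 of 72 members were higher at p under 0.05 (2.38% of all genes). With any other mouse left out between 13 and 25 were (4.31% to 8.75% of all genes), without WT 3 giving 13. Without the batch term 5 were (1.23% of all genes). Cytosolic ribosomal protein transcripts were highest in the same mouse, at 178069 CPM against 102391 to 139957 CPM in the other 5, and their median log2 fold change was 0.35. The pericyte markers summed to between 255 and 929 CPM in WT and between 431 and 1269 CPM in Fmr1-KO endothelial cells. What part these had in the result was not tested.

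Few members had values that did not overlap between the genotypes. They numbered 7 of 72 in Endothelial (8.19% of all genes), 8 of 71 in Ganglionic (7.96%), 6 of 74 in Oligodendrocytes (9.04%), 5 of 75 in Pericytes (6.62%) and 3 of 70 in OPC_1 (6.77%). There were 3 of 74 in Astrocytes_1 (6.21%), 2 of 71 in Astrocytes_2 (7.15%), 3 of 72 in Excitatory (4.36%), 1 of 70 in Interneuron (6.86%) and 2 of 62 in Microglia (6.85%).

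Estimates in the other subtypes were smaller or mixed. Pericytes had 65 of 75 members with a higher estimate in Fmr1-KO (median 0.18; 8 with p under 0.05 and 0 lower, against 1.71% and 1.58% of all genes). *Sdhb*, the iron-sulfur subunit of complex II, was there at 113, 140 and 129 CPM in WT and at 186, 143 and 214 CPM in Fmr1-KO, without overlap (log2 fold change 0.64 ± 0.21, edgeR FDR = 0.996). Astrocyte markers were lower in the Fmr1-KO pericytes, at 66.9 to 115 CPM against 122 to 341 CPM in WT, and their part in the result was not tested. The pericyte count of 8 was 2 without WT 1, 5 without WT 2, and 3 with 2 lower without Fmr1-KO 3 (1.13%, 1.71% and 2.48% of all genes higher). It was 1 without the batch term (0.678%). *Ndufa4l2* in Pericytes differed by 0.06 ± 0.15 and *Cox4i2* by 0.09 ± 0.26 on the log2 scale.

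In Ganglionic cells 54 of 71 members had a higher estimate (median 0.16), 10 with p under 0.05 and 1 lower (3.44% and 2.94% of all genes). *Ndufa13*, an accessory subunit of complex I, was at 69.4, 45.3 and 63.5 CPM in WT and at 72.9, 93.2 and 163 CPM in Fmr1-KO (log2 fold change 0.91 ± 0.27, edgeR FDR = 0.588). The Ganglionic median was -0.0059 without Fmr1-KO 3 and 0.30 without WT 1, and the count of 10 became 4 and 15 (3.32% and 4.09% of all genes). It was 3 without the batch term (60 of all 4009 genes). Oligodendrocytes (52 of 74 higher, median 0.16) had 6 with p under 0.05 (1.97% of all genes), led by *Atp5o*, at 93.4, 96.0 and 98.1 CPM in WT and 249, 135 and 174 CPM in Fmr1-KO (0.89 ± 0.29, edgeR FDR = 0.936). OPC_1 (56 of 70 higher, median 0.10) had 5 (2.36%), led by *Ndufa4* (0.40 ± 0.12, edgeR FDR = 0.947). Without Fmr1-KO 3 the median was 0.033 in Oligodendrocytes and -0.056 in OPC_1, and without WT 1 it was 0.25 in OPC_1. Within batch 1 the members' median log2 ratio of mean CPM was 0.0076 in Ganglionic, 0.029 in Oligodendrocytes and -0.061 in OPC_1. Within batch 2, where Fmr1-KO 3 is the only Fmr1-KO mouse, it was 0.30, 0.17 and 0.22. In Endothelial cells these medians were 0.16 and 0.21, and in Pericytes 0.12 and 0.23. The oligodendrocyte count of 6 was 1 without WT 2 (64 of all 4726 genes), 1 with 2 lower without Fmr1-KO 3 (4.51% of all genes higher), 4 without WT 1, WT 3 or Fmr1-KO 1, and 1 without the batch term (1.95%). In OPC_1 the count of 5 was 23 without WT 1 (5.50%), 11 without Fmr1-KO 1 (2.82%), 9 without Fmr1-KO 2 (2.40%), 1 with 1 lower without Fmr1-KO 3 (3.19% higher), and 1 without the batch term (0.834%). The 4 Ganglionic markers in OPC_1 summed to between 505 and 698 CPM in WT and between 699 and 810 CPM in Fmr1-KO, with no overlap, and their part in the result was not tested.

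In the neurons and in the other glia the median estimate was near 0. Within batch 1 and batch 2 the members' median log2 ratio of mean CPM was -0.12 and 0.21 in Microglia, of opposite sign. It was -0.045 and -0.086 in Excitatory, -0.035 and 0.092 in Interneuron, -0.017 and -0.060 in Astrocytes_1 and -0.014 and 0.087 in Astrocytes_2. Excitatory neurons had 47 of 72 members with a lower estimate in Fmr1-KO (median -0.06), and 1 member, *Ndufs5*, with p under 0.05 (1.93% of all genes), in the higher direction. Interneuron had a median of 0.01, with 1 member higher (2.14%) and 1 lower (2.39%) at p under 0.05, the lower one being *Cox5b* (-0.35 ± 0.13, edgeR FDR = 0.998). Astrocytes_1 had a median of -0.03, with 2 higher and 1 lower (2.43% and 2.29%), and Astrocytes_2 0.01, with 2 higher and 0 lower (2.18% and 2.08%). Microglia had a median of 0.04 and 0 members at p under 0.05 in either direction (1.16% and 1.96%), and its median was -0.17 without Fmr1-KO 3 and 0.26 without WT 1. Without Fmr1-KO 3, 7 members were lower at p under 0.05 (3.72% of all genes), and without WT 1, 5 were higher (3.02%).

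**Figure D5:**
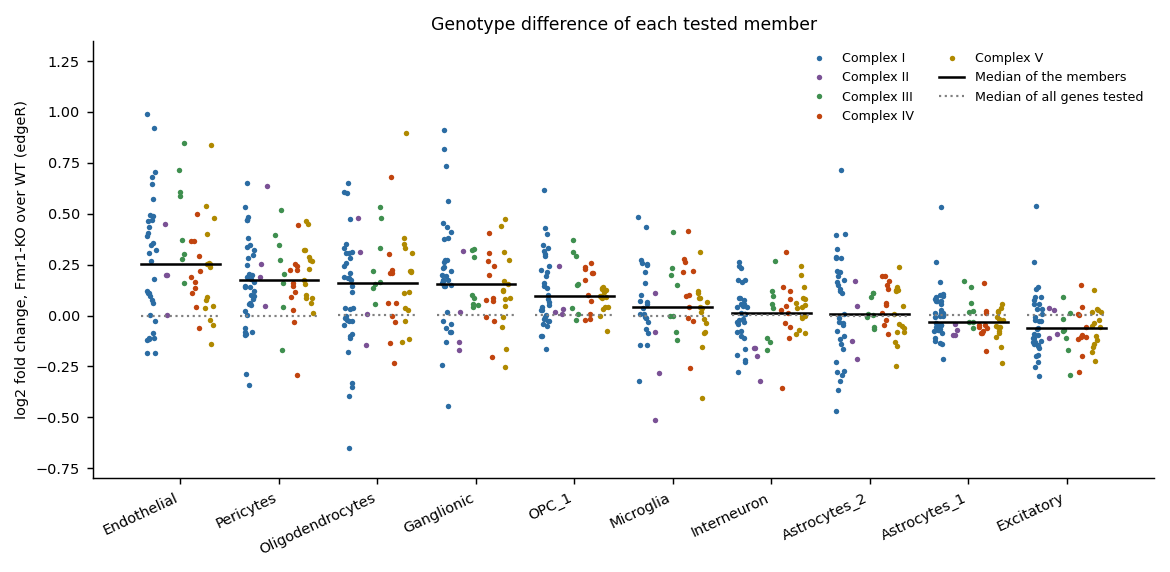
log2 fold change of Fmr1-KO over WT by edgeR for each tested member, by subtype and coloured by complex; black lines are the medians of the members and dotted lines those of all genes tested. Subtypes are ordered by median, from 0.25 in Endothelial cells to -0.06 in Excitatory neurons, and 0 of the points passed the FDR threshold.

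Whether the genotype difference itself varied between subtypes was tested with mouse as a block, each of Interneuron, Ganglionic, Endothelial and OPC_1 against Excitatory. No member was called by edgeR in any of these tests, and neither was any other gene (0.0% in each). At an unadjusted p under 0.05 there were 6 of 70 members for Endothelial (3.0% of all genes), 2 of 71 for Ganglionic (2.52%), 3 of 69 for OPC_1 (1.88%) and 0 of 70 for Interneuron (2.46%). The estimate was more positive than in Excitatory for 54 of 70 members in Endothelial, 62 of 71 in Ganglionic, 61 of 69 in OPC_1 and 38 of 70 in Interneuron, with median differences of 0.23, 0.22, 0.17 and 0.01 on the log2 scale against 0.02, -0.01, 0.01 and -0.03 for all genes. The 4 comparisons share the Excitatory values. Their fit held no term for a batch difference that varies by subtype, and the genotypes are unevenly spread over the batches. The members' median log2 difference of batch 2 from batch 1 was 0.25 in Excitatory and 0.43 in Interneuron. It was 0.14 in Ganglionic, 0.18 in Endothelial and 0.13 in OPC_1. The differences given here are not adjusted for this. The lowest p was that of *Ndufc1*, an accessory subunit of complex I, in Endothelial cells, with a difference in log2 fold change of 1.25 ± 0.36 in the joint fit (SE, edgeR, FDR = 0.999). In the separate fits its log2 fold change was 0.92 ± 0.25 in Endothelial cells and -0.06 ± 0.15 in Excitatory neurons.

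Related gene lists gave no calls either, though not all their genes could be tested. Of the assembly factors of the complexes, the TCA cycle, glycolysis, the regulators of mitochondrial genes and the mitochondrial carriers and porins, 0 of the genes tested were called by edgeR in either direction in any subtype. Per subtype these were 4 to 12 of 44 assembly factors, 13 to 18 of 18 TCA cycle genes, 9 to 16 of 19 glycolysis genes, 0 to 5 of 13 regulators and 14 to 15 of 16 carriers and porins. The list of carriers and porins also holds *Chchd2*, which is neither. Of the 79 cytosolic ribosomal proteins 78 were tested and 0 called. In Endothelial cells the median log2 fold change was 0.07 for 8 assembly factors, 0.06 for 15 TCA cycle genes, 0.09 for 13 glycolysis genes and 0.17 for 15 carriers and porins, beside 0.25 for the chain. In Excitatory neurons the corresponding medians were 0.05, -0.09, -0.11 and -0.04.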

How the data were processed

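The deposited table holds UMI counts per gene and cell. The authors aligned reads to mm10 with TopHat2 2.0.14 and counted UMIs at 3' ends with ESAT, extending genes by 1000 bases, and kept cells with at least 700 UMIs. Their cell annotation gave subtype, mouse and bead version, and the size factor of each cell, a ratio that the authors computed within each batch, was used only as an alternative scale. Cells annotated as doublets were left out and no further caller was run. Counts were summed per mouse and subtype (at least 10 cells) and tested with edgeR 4.0.16 (TMM, quasi-likelihood test, batch as covariate; R 4.3.3), with DESeq2 1.42.0 as an alternative. The study tested cells, whereas mice are the replicates here, so p-values measure the spread between mice. An exact permutation test of 3 against 3 mice cannot go below 0.1 and was not used. Levels were computed with Python 3.11.15, pandas 2.3.3 and scipy 1.17.1, which gave the Clopper-Pearson intervals. Scripts were tested on simulated data. Named members are the isoform families, the core subunits, up to 3 members per subtype with the smallest genotype p and the same sign in both batches, up to 3 with the largest difference from the other subtypes, the member with the smallest p in each test between subtypes, and *Fmr1*. Lists are illustrated by their 2 most abundant genes. Some genes that these rules name are not reported here. The members and lists were chosen with earlier results of these data known.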

Additional observations from a re-analysis of the deposited data

How the results depend on the processing

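Of the main results under an alternative, 552 stayed within their limits and 16 moved. Without the filter on low genes edgeR called 1 member in Endothelial cells. Leaving out 1 mouse at a time moved the median log2 fold change of the members, with Fmr1-KO 3 out giving the lower end each time. It ran between -0.0059 and 0.30 in Ganglionic, -0.17 and 0.26 in Microglia, -0.056 and 0.25 in OPC_1 and 0.033 and 0.19 in Oligodendrocytes. Without Fmr1-KO 3 or WT 1 the genotype difference comes from 1 batch only. Thinning cells to 700 UMIs gave a log2 ratio of the summed level of -0.23 for complex II in Ganglionic, and in Oligodendrocytes 0.20 for all members and 0.53 for complex II. For complex II in Microglia it was -0.25 with size factors and -0.14 with each barcode counted once, an alternative chosen after seeing the data. The cause of these shifts was not tested. At 2-fold, 8 of 84 members were higher in Pericytes (10.3% of all genes) and 4 lower in Microglia (16.4%), and requiring detection in 15% of the cells left 19 of 62 in Microglia (10.6%). Leaving out 1 mouse gave 40 to 47 in Pericytes and 25 to 36 in Microglia. With 10 CPM added *Cox6b2* in Ependymal cells stood at a log2 difference of 2.85. With the replicate number as a block 0 members were called in any subtype, and 8 of 72 in Endothelial cells were higher at p under 0.05 in place of 23 (2.52% of all genes in place of 6.94%). It gave 1 in place of 8 in Pericytes (1.55%), 2 in place of 10 in Ganglionic (2.59%), 2 in place of 5 in OPC_1 (2.23%) and 3 in place of 6 in Oligodendrocytes (2.90%). Mice of number 2 deviated in opposite directions in each subtype (correlation -0.53 to -0.06). They were of different batches and the deviations were not adjusted for batch. Whether the numbers pair the mice therefore cannot be decided from these correlations. Numbers 1 and 3 coincide with the batches.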

Other observations

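Other energy pathways shared some of the order of the chain across the subtypes. Transcripts of glycolysis, led by *Gapdh* and *Pkm*, summed to 7874 ± 1126 CPM in Astrocytes_1 (SD, n = 6 mice) and to 2401 CPM in Fibroblasts (n = 3). Those of the TCA cycle were highest in Astrocytes_1 at 3036 ± 160 CPM and lowest in Microglia at 1658 ± 96.3 CPM. The list of mitochondrial carriers and porins was led by *Chchd2*, which is neither, and *Slc25a4*. Its sum reached 5784 ± 402 CPM in Pericytes and 4187 ± 388 CPM in Astrocytes_2. The assembly factors were highest in Ependymal cells at 1983 ± 199 CPM and lowest in Microglia at 1148 ± 134 CPM.

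Among the regulators, *Ppargc1a*, a coactivator known for its part in mitochondrial biogenesis, was at 205 ± 69.9 CPM in CR (n = 5 mice) and 139 CPM in Astrocytes_1 (126 to 163), and at 5.81 ± 6.61 CPM in Pericytes, where the chain was highest. These are levels by subtype, with no test.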
